A study of Homo sapiens with 9 samples.

Results

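Sense intronic and sense overlapping transcripts are non-coding genes that lie on the same strand as another gene, inside its introns or across it. In ACHN cells, a human renal carcinoma line, those inside a coding gene were more often higher than lower with 50 nM piericidin A. Their coding hosts, like protein-coding genes in general, were more often lower than higher. The members were the rows typed sense intronic (287 genes) or sense overlapping (73 genes) in the deposited table of filtered log2 FPKM, 360 of its 18859 genes. That table holds only genes above 0 in all 9 libraries. A coding host was any protein-coding gene of the table sharing at least 1 base on the same strand, and 293 members had one.

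The study sequenced RNA from ACHN cells in 3 groups of 3 libraries, to examine how piericidin A, an inhibitor of mitochondrial complex I, acts on renal carcinoma. One group received 0.1% DMSO, one 25 nM and one 50 nM piericidin A. All groups were adherent cells in MEM, and the labels do not say whether the piericidin A wells also held DMSO. No label states that replicates came from separate cultures, and p-values then measure only the spread between these samples, which may be technical. How long cells were treated, how RNA was selected and whether libraries kept strand are not given in the sources used here.

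An intron is transcribed as part of the precursor RNA, cut out by the spliceosome and normally degraded in the nucleus. A short non-coding gene annotated inside an intron therefore collects fragments from 2 sources that cannot be told apart by counting: its own transcript, and precursor or excised intron RNA of the host. The level of such a gene relative to its host's exons is used as a sign of unspliced RNA, and many genes named with the ending IT were defined from such intronic transcripts. In bulk RNA, a change in the amount per cell and a change in the share of cells holding the RNA cannot be told apart.

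The sequences of 6 members are shown because they include 3 of the largest rises and 3 named intronic transcripts that rose, and because their 3′ ends bear on how such RNA is captured. They are from GENCODE release 29 on GRCh38, the build of the deposited table, 5′ to 3′, with the polyadenylation signals AATAAA and ATTAAA in capitals where they start in the last 50 bases. The first is the whole single-exon transcript inside FOSL2 (chr2:28396815-28397110, plus strand, 296 bases), and the others are 3′ ends.
RP11-373D23.2: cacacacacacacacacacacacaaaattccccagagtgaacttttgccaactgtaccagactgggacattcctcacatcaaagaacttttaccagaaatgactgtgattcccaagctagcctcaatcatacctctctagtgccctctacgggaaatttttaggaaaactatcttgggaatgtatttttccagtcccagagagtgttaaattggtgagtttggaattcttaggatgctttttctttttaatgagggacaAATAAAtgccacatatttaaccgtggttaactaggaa
RP11-545P7.9: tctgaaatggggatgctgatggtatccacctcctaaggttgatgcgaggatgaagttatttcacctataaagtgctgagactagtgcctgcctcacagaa
RP3-453C12.14: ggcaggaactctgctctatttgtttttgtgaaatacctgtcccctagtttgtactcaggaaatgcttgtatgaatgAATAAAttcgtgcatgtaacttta
KCNH1-IT1: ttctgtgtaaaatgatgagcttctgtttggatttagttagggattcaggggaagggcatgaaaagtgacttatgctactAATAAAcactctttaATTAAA
NARF-IT1: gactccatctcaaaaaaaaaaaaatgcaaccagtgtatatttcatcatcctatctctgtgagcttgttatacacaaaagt
ANKRD10-IT1: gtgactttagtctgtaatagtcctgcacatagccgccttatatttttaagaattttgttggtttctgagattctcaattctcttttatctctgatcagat
RP11-545P7.9 ends at chr12:113249943-113250042 (plus strand) in TPCN1, and RP3-453C12.14 at chr20:45345115-45345214 (minus strand) in SDC4. KCNH1-IT1 ends at chr1:211132588-211132687 (minus strand) in KCNH1. NARF-IT1 ends at chr17:82483309-82483388 (plus strand) in NARF, and ANKRD10-IT1 at chr13:110894639-110894738 (minus strand) in ANKRD10. No exon of these 6 shares a base with another gene on the same strand in that release.

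Of 339 members with a transcript in GENCODE release 29, 193 (56.9%) held AATAAA or ATTAAA on the sense strand in the last 50 bases. The share was 76.6% in 13776 protein-coding genes of the table, 59.0% in lincRNAs and 49.5% in antisense genes. In the first 50 bases of the members it was 5.31%. Among members called higher at 50 nM, 58 of 118 (49.2%) held a signal, against 66.3% of members tested and not called. A run of 8 A, a possible internal site for oligo(dT) priming, occurred in 25.1% of members and 37.9% of protein-coding transcripts. These shares are not adjusted for length, and the median transcript was 675 bases in members and 3667.5 in protein-coding genes. Such a run occurred in 30 of 118 members called higher at 50 nM (25.4%) and 3 of 12 called lower, against 16.3% of members tested and not called. These are descriptions of the annotated sequence, and the part of RNA capture in the changes was not tested.

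The members are short and faint. Their median length was 706.5 bases (183 to 54538), 199 had 1 exon and 113 had 2, and the median of their mean FPKM was 0.579 (0.028 to 10.7). FPKM is fragments per kilobase of gene, scaled to the depth of the library. Recovered whole fragments had a median of 12.2 a library, and 150 members had fewer than 10, so single members carry a large counting error. Fragments recovered over the 18859 genes of the log2 table were 24365472 to 29245674 a library, and were not highest at 50 nM. They are not the full depth, and the deposited scaling differed from them. Summed FPKM of the members was on average 307 in DMSO, 376 at 25 nM and 526 at 50 nM as deposited. Scaled to these totals it was 306, 367 and 550. All 10 genes listed as renal epithelial markers, VIM and LOX among them, were detected (PAX8 at 71.3 ± 1.26 FPKM in DMSO, SD, n = 3). Of these 10, 2 were called higher and 5 lower at each dose. Of all tested genes, 26.3% were higher and 25.8% lower at 25 nM, and 29.2% and 31.5% at 50 nM. None of the 3 endothelial and 4 leukocyte markers found in the deposited unfiltered FPKM exceeded 0.154 FPKM in any library. Of 6 fibroblast markers only COL1A1 and PDGFRB passed the filter on low values. COL1A1 was 1.72 FPKM in DMSO and 2.89 with 50 nM, and PDGFRB 0.697 and 0.372, and their part in the results was not tested.

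Summed over all 360 members, FPKM was 297, 320 and 305 in the DMSO libraries, 380, 376 and 372 at 25 nM, and 561, 491 and 527 with 50 nM. The 3 groups did not overlap. The mean rose 1.22-fold at 25 nM and 1.71-fold at 50 nM, with an exact two-sided permutation p of 0.1 for each of the 3 pairs of groups, the smallest that 3 against 3 can give. The members held 0.0350 ± 0.000989% of the recovered fragments in DMSO and 0.0365 ± 0.00101% with 25 nM (SD, n = 3, exact permutation p = 0.2). With 50 nM they held 0.0539 ± 0.00434% (SD, n = 3, exact permutation p = 0.1 against DMSO). Thus the rise at 25 nM was seen in the sum of FPKM, where the DMSO and 25 nM groups do not overlap, and not in the share of fragments, where they do. The number of members at 0.5 FPKM or more was 143, 164 and 154 in DMSO, 185, 194 and 171 at 25 nM, and 235, 220 and 224 with 50 nM. The number of all genes above 0 was also higher at 50 nM (25936 ± 453) than in DMSO (23939 ± 291, SD, n = 3, exact permutation p = 0.1), and its part in the members' rise was not tested.

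Set against the fragments of their hosts, members were also higher with treatment. This measure counts fragments and leaves out members with no host, so its fold changes are not comparable with those of summed FPKM. The 293 members with a host held 6.17, 6.60 and 6.40 fragments per 1000 host fragments in DMSO. They held 9.02, 8.75 and 8.76 at 25 nM, and 15.7, 13.2 and 14.4 with 50 nM. The means rose 1.38-fold and 2.26-fold without overlap between groups (exact permutation p = 0.1 for both, and 0.1 adjusted over the 3 pairs of groups). Fragments of the hosts, not scaled to depth, were 978689, 950174 and 1046214 in DMSO. They were 773736, 821735 and 750622 at 25 nM, and 729431, 742693 and 768088 with 50 nM. The rise against the hosts therefore includes the lower host totals. The median member reached 5.33% of its host's mean FPKM in DMSO, 7.76% at 25 nM and 12.5% at 50 nM, over 293 pairs.

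**Figure D1:**
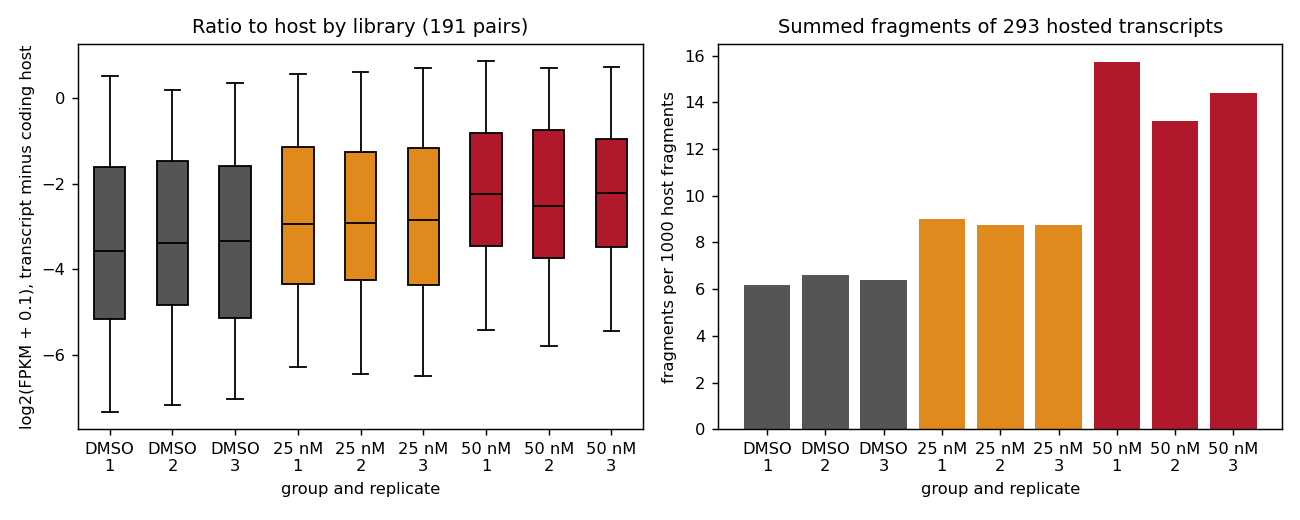
Left, log2(FPKM + 0.1) of a transcript minus that of its coding host in each library, for 191 pairs (box, middle 50%; line, median; whiskers, 5th to 95th percentile). Right, fragments of the 293 hosted members per 1000 fragments of their hosts, which lie between 6.17 and 6.60 in DMSO, 8.75 and 9.02 at 25 nM, and 13.2 and 15.7 at 50 nM.

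Single members were tested with limma on log2(FPKM + 0.1), with p-values adjusted by the Benjamini-Hochberg method over the 15541 genes that reached 0.5 FPKM in at least 3 libraries. This left 229 members (194 sense intronic, 35 sense overlapping) and set aside 131. The filter matters here: 48 of the 229 had no DMSO library at 0.5 FPKM, against 1 with no 50 nM library there, so counts over tested members favour rises. At 50 nM, 123 members were called higher (adjusted p under 0.05), where 29.2% of all tested genes were, and 13 were called lower, where 31.5% of all were. Without a filter, 164 of all 360 members were higher and 25 lower, against 27% and 27.3% of 18859 genes, and the members' median log2 fold change was 0.67. Here and below, no filter means all 18859 genes of the log2 table, which are above 0 in every library. The 15541 were taken from the deposited unfiltered FPKM and include genes outside the 18859. Among the 131 faint members left out of the filtered fit, 40 were higher and 10 lower in the unfiltered one.

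At 25 nM, 66 of the 229 were called higher, a share close to the 26.3% of all genes, and 22 lower, where 25.8% of all genes were. Without a filter the counts were 79 and 29 of 360, against 22% and 22.8%. The median change of all genes was 0.02 in the main fit of 15541 genes. It was -0.19 over 14605 genes with each library scaled to the same sum of FPKM, so scaling and gene set both differed. Of 228 members tested that way, 51 were higher and 31 lower, where 2115 of 14605 genes were higher and 6377 lower. Between the doses, 75 members were higher at 50 nM than at 25 nM, where 14.7% of all genes were, and 3 were lower, where 18.8% were. Without a filter the counts were 107 and 3 of 360, against 14.8% and 15.1%. The 75 became 40 without replicate 1 of the 50 nM group. The median log2 change of tested members was 0.26 at 25 nM, 0.81 at 50 nM and 0.49 between the doses, beside 0.02, 0.005 and -0.01 for all genes.

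In the unfiltered fit 27% of all genes were higher at 50 nM and 27.3% lower, and the counts of each kind of member are read against these shares. Of the 271 members lying wholly inside a coding host, 151 were higher and 6 lower, with a median log2 change of 0.85. Of the 67 members with no coding gene on their strand in the table, 7 were higher and 17 lower, with a median of -0.09, so that falls were near the share of all genes. Sense intronic members gave 151 higher and 9 lower of 287 (median 0.77), and sense overlapping members 13 higher and 16 lower of 73 (median 0.10). The following values are of genes past the filter, where the members inside a host had a median of 0.96 (186 genes). Other non-coding genes sharing the strand of a coding gene gave similar counts: 227 of 378 were higher and 12 lower (median 1.06). Non-coding genes with a coding gene on the opposite strand only had a median of 0.68 (999 genes), and those with no overlapping coding gene 0.23 (1276 genes). Protein-coding genes had a median of -0.09, with 25.7% higher and 39.9% lower (11722 genes). Differences between these classes were not tested, since their genes share libraries.

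**Figure D2:**
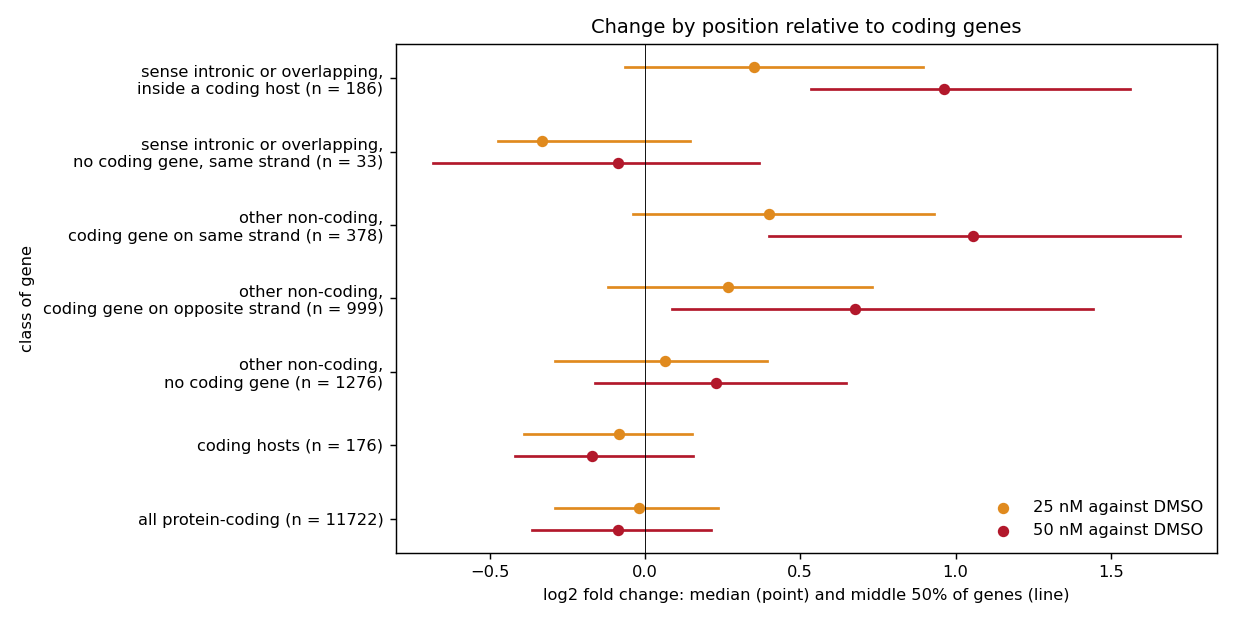
Log2 fold change against DMSO by class of gene, as the median (point) and the middle 50% of tested genes (line), with the number of genes. At 50 nM the median is 0.96 for members inside a coding host, 1.06 for other non-coding genes on a coding gene's strand, and -0.09 for members without such a gene.

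The change of each member relative to its host was fitted over all 542 tested pairs of a non-coding gene and a same-strand coding gene, 191 of them members. At 50 nM the log2 ratio was higher in 116 of the 191 and lower in 2 (median change 0.98). The share over all 542 pairs was 59% higher and 3.14% lower, so the members' share was near that of all non-coding genes paired with a coding gene. Without a filter, 152 of 293 member pairs were higher and 7 lower, against 48.7% and 3.86% of all 855 pairs. At 25 nM, 55 of 191 ratios were higher and 8 lower (median 0.53), against 27.5% and 3.69% of the 542. Without a filter these were 62 and 7 of 293, against 19.5% and 2.57%. With coding genes on the opposite strand as partners, 10 ratios were higher at 50 nM and 0 lower of 18 tested by limma (0 lower also at an unadjusted p under 0.05). These are another and smaller set of pairs. The share over all non-coding genes with such a partner is not given here, so the counts say nothing particular to the members.

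The changes of host and inner transcript showed little relation. In the 116 pairs with a higher ratio at 50 nM, which have 114 different hosts, the member itself was called higher in 101. The host was called lower in 72, higher in 19 and neither in 25. Across the 191 pairs, Spearman's rho between the log2 change of the member and that of the host was -0.03 at 50 nM and -0.004 at 25 nM. The 2 quantities share libraries and rho is a description only. The 176 hosts themselves had a median change of -0.17 at 50 nM, with 41 (23.3%) higher and 87 (49.4%) lower, beside 25.7% and 39.9% of all tested protein-coding genes. Whether hosts differ from other coding genes was not tested.

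**Figure D3:**
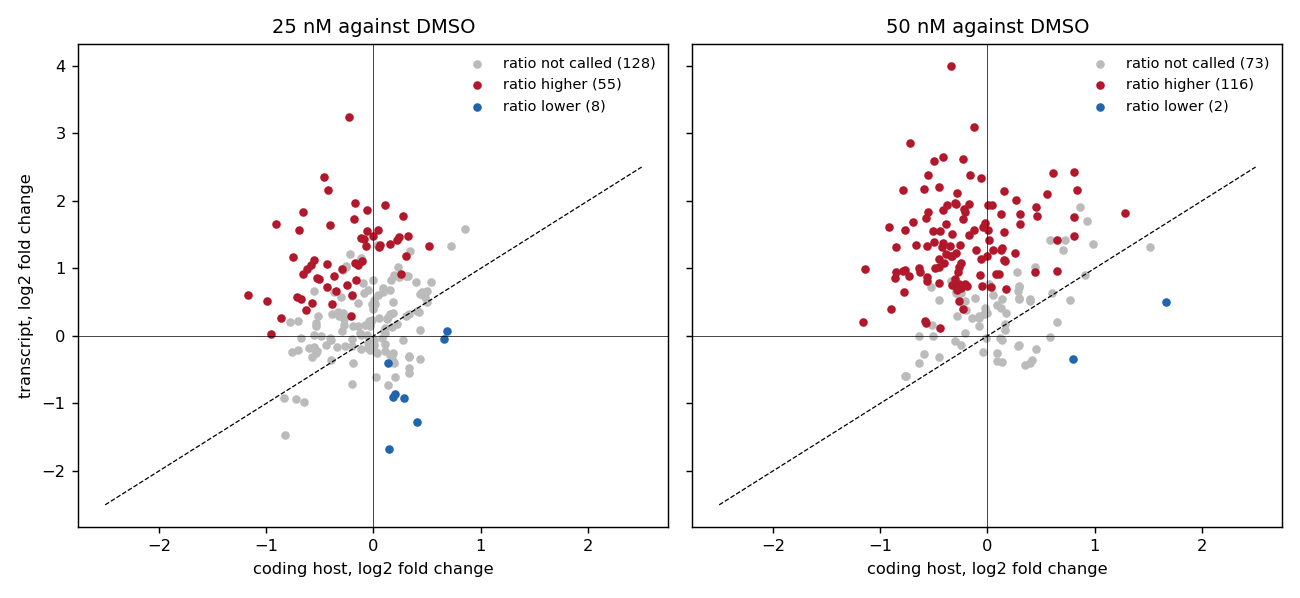
Log2 fold change against DMSO of the transcript (vertical) and of its coding host (horizontal) for 191 pairs, with equality dashed. Pairs with a higher ratio number 55 at 25 nM and 116 at 50 nM, and most lie above 0 on the vertical axis with hosts near or below 0.

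The ratio was higher at 50 nM than at 25 nM in 29 of 191 pairs (16.6% of all 542 pairs) and lower in 0 by limma, where 0.554% of all pairs were (3 lower at an unadjusted p under 0.05, and 1 lower by limma voom). These calls between the doses were lost in part or in full when any single library of either dose was left out. The shares over all pairs in those fits are not given here. Leaving out replicate 1 or replicate 3 of the 50 nM group left 0 calls by limma, with 51 and 56 pairs higher at an unadjusted p under 0.05. Leaving out replicate 2 of that group left 10, and leaving out replicates 1, 2 or 3 of the 25 nM group left 11, 12 and 8. The median change between the doses was 0.52 with all libraries. Without a filter, 38 of 293 pairs were higher and 1 lower, against 12.9% and 0.702% of all.

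RP11-373D23.2 (ENSG00000270640), the first sequence shown, lies in FOSL2, which encodes a subunit of the AP-1 transcription factor. Its FPKM was 0.125, 1.01 and 0.463 in DMSO, 3.97, 6.93 and 4.06 at 25 nM, and 9.02, 7.68 and 7.95 at 50 nM. Every treated library was above every DMSO library, and the DMSO values rest on 1, 8 and 4 fragments. The log2 fold change was 4.0 ± 0.51 (SE) at 50 nM, with a limma adjusted p of 2.39e-04, and 3.24 at 25 nM. FOSL2 itself fell by 0.34 (limma adjusted p = 4.60e-04), so the transcript went from 0.525% to 10.3% of its host's FPKM. For this and the other largest rises and falls, no overlap with DMSO was a condition of being named. It was also common: of 15541 tested genes, 5271 lay wholly above and 5669 wholly below DMSO at 50 nM. At 25 nM these were 4894 and 4835.

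RP3-453C12.14 lies in SDC4, the gene of syndecan-4, a heparan sulphate proteoglycan of the cell surface. Its FPKM was 0.261, 0.579 and 0.483 in DMSO, 2.34, 2.67 and 1.81 at 25 nM, and 3.38, 3.70 and 3.94 with 50 nM. The 3 groups were ordered without overlap. At 50 nM it rose by 2.85 ± 0.22 (SE, limma adjusted p = 8.97e-06) while SDC4 fell from 485 ± 4.61 to 295 ± 13.6 FPKM (SD, n = 3), and the ratio rose by 3.57.

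RP11-545P7.9 lies in TPCN1, an endolysosomal cation channel. It was at 0.448, 1.04 and 1.31 FPKM in DMSO, 3.37, 2.41 and 3.09 at 25 nM, and 8.04, 9.42 and 6.81 at 50 nM, again without overlap. The rise at 50 nM was 3.09 ± 0.32 (SE, limma adjusted p = 7.25e-05). Here the host moved differently at the 2 doses: TPCN1 was 68.3 ± 0.885 FPKM in DMSO, 36.3 ± 0.461 at 25 nM and 62.8 ± 5.70 with 50 nM (SD, n = 3).

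RP11-845C23.2 lies near the end of NEDD4L, a ubiquitin ligase that acts on the epithelial sodium channel. Its FPKM was 0.134, 0.136 and 0.311 in DMSO, 1.80, 1.44 and 0.941 at 25 nM, and 2.11, 1.33 and 1.67 with 50 nM. The treated groups overlapped with each other and not with DMSO. The log2 rise was 2.36 at 25 nM and 2.65 at 50 nM, and the difference between the doses was 0.29 ± 0.30 (SE, limma adjusted p = 0.48).

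RP1-68D18.2 in CD44, the hyaluronan receptor, was at 0.420, 0.637 and 0.292 FPKM in DMSO, 1.67, 1.32 and 0.412 at 25 nM, and 3.96, 3.12 and 2.40 at 50 nM. One 25 nM library lay within the DMSO range, and the 25 nM difference did not pass the test (limma adjusted p = 0.0843). Without that library it did (1.58). At 50 nM the rise was 2.59 ± 0.45 (SE, limma adjusted p = 0.00114). LA16c-329F2.2 in MAPK8IP3, a scaffold of JNK signalling, went from 0.255 to 1.13 and 1.63, and its host was also higher at 50 nM (0.81). RP11-762I7.4 rose by 3.27 at 50 nM from 0.315 FPKM, inside a SARNP model that the table lists at only 0.0601 FPKM in DMSO, so no ratio was tested.

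**Figure D4:**
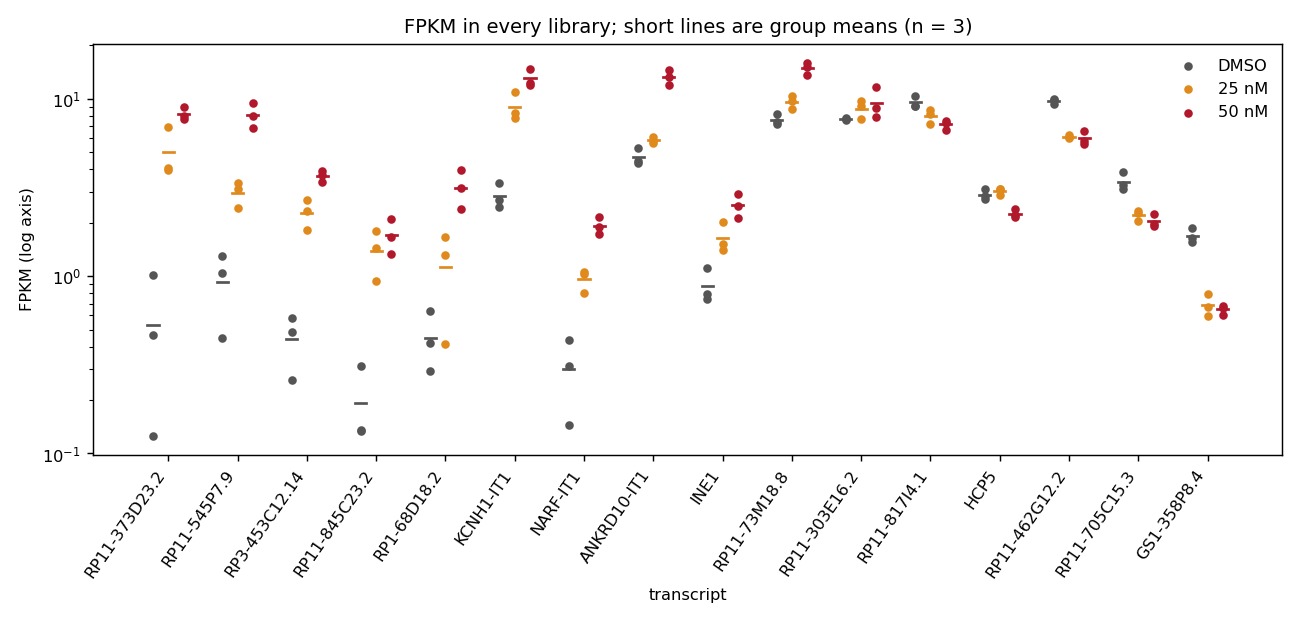
FPKM on a log axis of 16 members in each of the 9 libraries, with group means as short lines (n = 3). The first 9 rise, from 0.532 to 8.21 FPKM at 50 nM for RP11-373D23.2, and the last 5 are lower at 50 nM than in DMSO.

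Members with a gene symbol of their own numbered 34, most of them named for the host with the ending IT, for intronic transcript. KCNH1-IT1, at the start of a voltage-gated potassium channel gene, was at 3.36, 2.45 and 2.68 FPKM in DMSO, 7.82, 8.34 and 10.9 at 25 nM, and 12.3, 12.0 and 14.7 with 50 nM. The 3 groups were ordered without overlap, and the rise at 50 nM was 2.17 ± 0.15 (SE, limma adjusted p = 5.60e-06). KCNH1 fell from 5.09 to 3.33 FPKM, so the inner transcript went from 55.7% to 390% of its host. ANKRD10-IT1 was at 4.43, 4.34 and 5.27 FPKM in DMSO, 6.12, 5.80 and 5.60 at 25 nM, and 14.6, 11.9 and 13.2 at 50 nM. Its rise of 1.48 ± 0.09 (SE, limma adjusted p = 2.50e-06) was larger between the doses (1.16) than up to 25 nM (0.32, not called without replicate 1 or 2 of DMSO or replicate 1 of 25 nM), and ANKRD10 also rose (0.81), leaving a ratio change of 0.67.

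HM13-IT1, in the gene of signal peptide peptidase, was 0.841 ± 0.284 FPKM in DMSO, 0.864 ± 0.162 at 25 nM and 2.70 ± 0.331 with 50 nM (SD, n = 3). The 50 nM libraries lay above the other 6, by 1.62 against DMSO and 1.55 against 25 nM (limma adjusted p = 2.93e-04 and 0.00153). NARF-IT1 rose by 2.42, RHOA-IT1 by 2.34, KIRREL-IT1 by 1.57, SMAD9-IT1 by 1.33, SOS1-IT1 by 1.23 and FTO-IT1 by 1.0 at 50 nM, and the call of FTO-IT1 was lost without replicate 3 of the 50 nM group (0.81). INE1, inside the ubiquitin-activating enzyme gene UBA1, was at 0.743, 1.11 and 0.798 FPKM in DMSO, 2.01, 1.51 and 1.40 at 25 nM, and 2.91, 2.49 and 2.14 with 50 nM. The groups were ordered without overlap and UBA1 did not pass the test (0.01 at 50 nM), so the ratio rose by 1.40 ± 0.28 (SE, limma adjusted p = 0.00199). ENO1-IT1, in the gene of the glycolytic enzyme enolase, rose by 0.84 at 50 nM and 0.68 at 25 nM, the latter not called without replicate 1 of DMSO or replicate 1 or 2 of 25 nM (0.56 to 0.59), while ENO1 fell from 595 ± 22.1 to 482 ± 21.8 FPKM (SD, n = 3) at 50 nM. NPTN-IT1 and KLF7-IT1 resembled HM13-IT1: they were called at 50 nM (0.91 and 0.97) and not at 25 nM (-0.05 and -0.17, limma adjusted p = 0.866 and 0.69). The call of KLF7-IT1 was lost without replicate 1 or 2 of DMSO or replicate 1 or 3 of 50 nM (0.86 to 0.99). DGCR11 in DGCR2 rose by 0.92 at 25 nM and 0.73 at 50 nM. PSORS1C3 rose by 0.63 at 50 nM with its host POU5F1 (0.61), leaving a ratio change of 0.02. AGAP1-IT1, ALMS1-IT1 and the non-coding gene named ELFN2 were not called at either dose (-0.31 to 0.60, limma adjusted p from 0.164 to 0.819). The ratio of AGAP1-IT1 rose by 1.77 and 1.30 as AGAP1 fell by 1.17 and 0.90, and at 50 nM it was not called without replicate 3 of that group (1.01).

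The named members that missed the filter, such as WWTR1-IT1 and BACH1-IT1, had 3 to 27.2 fragments a library on average and no filtered test. HEXDC-IT1 was the deepest IT transcript among them, at 0.143, 0.185 and 0.170 FPKM in DMSO, 0.290, 0.256 and 0.274 at 25 nM, and 0.747, 0.383 and 0.669 at 50 nM, with no overlap between groups.

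Some members rose about as far at 25 nM as at 50 nM. CTD-2033D15.2 in THBS1, the gene of the matrix protein thrombospondin-1, was at 1.21, 0.866 and 1.08 FPKM in DMSO, 3.87, 3.96 and 4.41 at 25 nM, and 4.38, 3.36 and 2.86 with 50 nM. The treated groups overlapped (difference -0.22 ± 0.16, SE, limma adjusted p = 0.309). AP000692.9 in MORC3, an ATPase of the nucleus, rose by 1.84 and 2.16, and shares exon bases with MORC3 on the same strand. RP11-417O11.5 in VCL, the gene of vinculin, was called at 25 nM (1.97) on FPKM of 2.01, 0.525 and 0.469, and the call was lost without the first of these libraries. Its call at 50 nM was lost without any one DMSO library or replicate 1 or 3 of 50 nM (1.21 to 1.62).

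Of the 5 most abundant members KCNH1-IT1 is described above. RP11-73M18.8 in KLC1, a kinesin light chain, went from 7.60 ± 0.533 to 9.62 ± 0.848 and 14.9 ± 1.22 FPKM (SD, n = 3), a rise of 0.96 at 50 nM. The KLC1 model of the table was at 0.884 FPKM in DMSO and also rose (0.65), and the ratio change of 0.31 (limma adjusted p = 0.0436) lay close to the threshold: among other settings, it was no longer called with no filter, with limma voom, or without replicate 2 or 3 of DMSO or replicate 1, 2 or 3 of the 50 nM group (0.24 to 0.32 without 1 library). The transcript inside CENPN, a centromere protein gene, was 7.72 FPKM in DMSO and 9.47 at 50 nM (limma adjusted p = 0.106). RP11-817I4.1 in BICD1, a dynein adaptor, fell by 0.40 at 50 nM, and BICD1 fell by 0.64. RP11-13J10.1, which overlaps part of POU3F3 and extends well beyond it, was 8.37 FPKM in DMSO and 9.62 at 50 nM (limma adjusted p = 0.314), while POU3F3, a transcription factor of the developing nephron, fell by 1.16.

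Of the 13 members called lower at 50 nM, 8 had no coding gene of the table on their strand. They are 24.2% of the 33 tested members of that kind, a smaller share than the 31.5% of all tested genes called lower. GS1-358P8.4 on chromosome X was at 1.65, 1.56 and 1.87 FPKM in DMSO, 0.597, 0.672 and 0.795 at 25 nM, and 0.602, 0.662 and 0.683 at 50 nM. Both doses lay below DMSO and overlapped each other, with a log2 change of -1.26 ± 0.13 (SE, limma adjusted p = 5.18e-05) at 50 nM. RP11-462G12.2 on chromosome 16 was at 10.02, 9.89 and 9.30 FPKM in DMSO, 6.28, 6.00 and 6.11 at 25 nM, and 5.75, 5.58 and 6.60 at 50 nM. Its neighbour RP11-462G12.1 fell by 0.50 and 0.69, and RP11-705C15.3 on chromosome 12 fell by 0.59 and 0.71. At 25 nM, 9 of these 33 (27.3%) were lower, near the 25.8% of all tested genes, and 0 higher by limma (1 at an unadjusted p under 0.05, and 1 by limma voom). Without a filter, 14 of 67 were lower and 1 higher, against 22.8% and 22% of all genes.

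A few members fell further at 25 nM than at 50 nM. RP11-701H24.7 and RP11-701H24.8, on chromosome 15, were lower at 25 nM by 1.44 and 1.43 on the log2 scale, with 50 nM values of -0.79 and -0.68 that did not pass the test (limma adjusted p = 0.0533 and 0.154). The 25 nM call of RP11-701H24.8 was lost without replicate 2 of DMSO (-1.23). At 50 nM both were called without replicate 3 of 25 nM, which leaves the values as they are, and RP11-701H24.7 also without replicate 1 of 50 nM (-1.08), with no filter and with limma voom. AC074286.1, which shares exon bases with NFE2L2, the master regulator of antioxidant genes, was at 0.840, 0.786 and 0.822 FPKM in DMSO, 0.412, 0.415 and 0.387 at 25 nM, and 0.631, 0.597 and 0.594 with 50 nM. The 3 groups did not overlap, and 50 nM lay between the others (-0.86 at 25 nM, limma adjusted p = 0.00173, and -0.37 at 50 nM, limma adjusted p = 0.0668). KB-1440D3.13 in PPIL2 and AC008982.2 in HNRNPL were lower at 25 nM (-1.68 and -1.28) and higher at 50 nM than at 25 nM (1.49 and 1.45, limma adjusted p = 0.0175 and 0.018), on 5 and 8.67 fragments a library on average. The call of AC008982.2 against DMSO was lost without replicate 1 of DMSO or replicate 1 or 2 of 25 nM (-1.04 to -1.13). RP11-298J20.4, which partly overlaps the deubiquitinase gene ZRANB1 and shares exon bases with it, fell by 1.46 at 25 nM and was higher at 50 nM than at 25 nM (0.87). Its fall at 50 nM (-0.59) was not called without any one of the DMSO libraries or replicate 1 or 3 of 50 nM (-0.36 to -0.61). RP11-347C18.3 lies in NDUFAF6, which encodes an assembly factor of complex I, the target of piericidin A. It was at 2.14, 1.32 and 1.55 FPKM in DMSO, 0.628, 0.655 and 1.29 at 25 nM, and 0.982, 1.09 and 1.66 with 50 nM. The 25 nM libraries lay below DMSO (-0.93, limma adjusted p = 0.0242) and the 50 nM libraries overlapped it (-0.40, limma adjusted p = 0.255), while NDUFAF6 rose by 0.28 and 0.40. The call of RP11-347C18.3 was lost without replicate 1 or 3 of DMSO or replicate 1 or 2 of 25 nM (-0.74 to -0.96). The transcript in HMBOX1, CTD-2647L4.4, fell by 0.98 at 25 nM together with its host (-0.65). The ratio of RP5-1057I20.6 to HDAC7, a histone deacetylase gene, fell by 1.08 at 25 nM, a call lost without replicate 1 or 2 of DMSO or replicate 1 or 3 of 25 nM (-0.90 to -1.08).

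The ratio was lower at 50 nM in 2 pairs, and in both the host rose. HCP5, a transcript of the major histocompatibility region that overlaps part of MICA, extends beyond it and shares exon bases with it, was at 2.81, 3.09 and 2.73 FPKM in DMSO, 2.85, 3.11 and 3.10 at 25 nM, and 2.39, 2.15 and 2.21 with 50 nM. The 50 nM libraries lay below all others (-0.34, limma adjusted p = 0.00285), and MICA, a ligand of the NKG2D receptor, rose by 0.80. CTC-435M10.12 rose by 0.50 and its host TMEM91 by 1.66, and the rise of CTC-435M10.12 was not called without replicate 1 or 2 of DMSO or replicate 1 or 3 of 50 nM (0.43 to 0.50). SNHG3, a host RNA of small nucleolar RNAs typed sense intronic within RCC1 and sharing exon bases with it, was 1.61 ± 0.0576 FPKM in DMSO, 1.31 ± 0.152 at 25 nM and 1.97 ± 0.165 with 50 nM (SD, n = 3), called lower at 25 nM and higher at 50 nM. Both calls against DMSO ended when any one DMSO library was left out (-0.27 to -0.31 at 25 nM and 0.25 to 0.29 at 50 nM), and also without replicate 1 or 2 of 25 nM or replicate 1 or 3 of 50 nM for the dose concerned (-0.23 and -0.26, 0.27 and 0.21).

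The ratio change at 50 nM showed little order by the place in the host or its size. Over 191 pairs, Spearman's rho was 0.03 with the position along the host, -0.04 with the span of the host, -0.08 with the mean FPKM and -0.20 with the length of the member. For 184 pairs with a sequence it was 0.04 with GC content. These values are descriptions over genes that share libraries. Members also share hosts: 14 hosts held 33 members, and CCDC92 alone held 6, of which 5 were tested and none was called at 50 nM by limma (-0.14 to 0.74, adjusted p from 0.206 to 0.712).

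**Figure D5:**
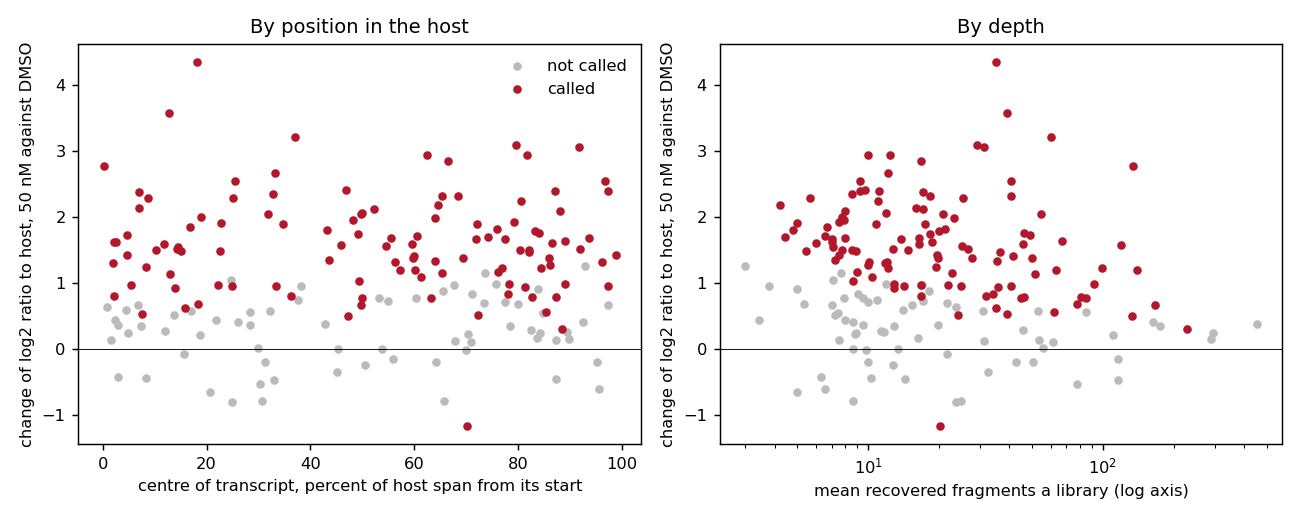
Change of the log2 ratio to the host at 50 nM against DMSO, by the position of the transcript's centre along the host (left, percent of the host's span) and by mean recovered fragments a library (right, log axis), for members wholly inside a host. Called pairs (red) lie along the whole span and at low and high depth.

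Of all tested genes, 29.2% were higher and 31.5% lower at 50 nM, and 26.3% and 25.8% at 25 nM. Genes of nuclear RNA decay were near these shares: of 32 tested, 11 were higher and 9 lower at 50 nM, and 10 and 8 at 25 nM (median -0.006 at 50 nM, beside 0.005 for all genes). SRRT, which links the cap-binding complex to the exosome, rose by 1.22 and 1.35 (16.1 ± 0.244 FPKM in DMSO and 41.3 ± 0.970 at 50 nM, SD, n = 3). PABPN1, the nuclear poly(A)-binding protein, rose by 1.12 and the exosome subunit EXOSC8 by 0.82 at 50 nM. XRN2, the nuclear 5′ to 3′ exonuclease, fell by 0.51. The others called lower at 50 nM were DIS3, SKIV2L2, ZCCHC7, PAPD5, RBM7, DBR1, CBLL1 and CCDC174 (-0.34 to -0.59). The others called higher were EXOSC1, EXOSC3, EXOSC4, EXOSC7, EXOSC9, EXOSC10, MPHOSPH6 and TTF2 (0.24 to 0.59). The near-even count thus holds genes moving in both directions. Genes known for retained introns were mostly higher: of 35 tested, 26 were higher and 3 lower at 50 nM (median 0.51), and 17 and 8 at 25 nM. LUC7L rose by 1.39 and CCNL2 by 1.27, both genes of splicing factors, and HNRNPH1 by 0.80. MAT2A, the methionine adenosyltransferase whose retained intron responds to its product, fell by 1.97 and 1.31. Of 22 tested nuclear long RNAs, one of them the member SNHG3, 13 were higher and 4 lower at 50 nM (median 0.27). MEG3, an imprinted RNA, rose by 2.26, from 4.63 ± 0.288 to 22.6 ± 1.39 FPKM (SD, n = 3). The paraspeckle RNA NEAT1 rose by 1.87 and RN7SK, the RNA that holds the elongation factor P-TEFb inactive, by 2.34, while NORAD, a largely cytoplasmic RNA, fell by 1.03.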

How the data were processed

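RNA of ACHN cells was sequenced in 9 libraries. The authors deposited FPKM per Ensembl gene and a filtered table of log2 FPKM with symbol, type, position and length, on hg38 per the submitters' processing notes. No source used here names the aligner, counting program or annotation release. FPKM times length was a whole multiple of 1 step in each library for 100% of genes of the log2 table (tolerance 0.01). This recovered whole fragments of those genes, and so their total and not the full depth. Whether fragments were assigned by strand is not given, so reads of an overlapping gene may be counted in a member.

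Tests used limma 3.58.1 (R 4.3.3) with trend and robust settings on log2(FPKM + 0.1), with all 9 libraries and group as the only factor. Genes reaching 0.5 FPKM in 3 libraries were kept and Benjamini-Hochberg adjustment ran over them, with calls at 0.05. Fold changes are on the log2(FPKM + 0.1) scale, which understates changes of faint genes. Ratios were the difference of log2 values of a non-coding gene and its same-strand coding gene, taking the coding gene with the largest overlap. Sums were compared by exact permutation over the 20 splits of 6 libraries. The gene models, and not those of the ratios, were also run on simulated counts. That simulation used the same spread setting for all genes and far fewer changed genes than these data. Its outcome is not given here and no result rests on it. Exon structure and sequences were from GENCODE release 29, where 339 members matched by ID. Of these, 33 share exon bases with another gene on the same strand.

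Named members were all with a symbol that is no clone name, the 8 largest called rises and falls at each dose with no overlap between groups, the 5 most abundant, and the 5 largest ratio rises and falls. Of each gene list, the 4 with the smallest p at 50 nM were named, plus 1 of the other direction. The remaining called genes of nuclear RNA decay were added after their values were seen. The members and lists were chosen with earlier results of these data known. CCDC92's members and the untested ones singled out were chosen after their values were seen, and some members and 1 nuclear long RNA under the rule are not reported here by name.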

Additional observations from a re-analysis of the deposited data

How the results depend on the processing

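No called value changed sign under the alternatives run. At 25 nM the members' median log2 change was 0.12 with a pseudocount of 1, 0.15 with no filter and 0.0687 scaled to the same sum of FPKM, and 0.25 to 0.32 without single libraries. The median ratio change at 25 nM was 0.31 with a pseudocount of 1, 0.39 with no filter and 0.37 with partners on the opposite strand, and 0.44 to 0.53 without single libraries. All values with opposite-strand partners are of 18 other pairs, not of the 191, and 3 ratios were higher at 25 nM among them. Ratios lower at 25 nM were 5 with only the 2 groups compared, 5 with at least 10 fragments a library and 1 with opposite-strand partners, and 4 to 7 without single libraries. At 50 nM the members' median was 0.94 with a pseudocount of 0.01, 0.42 with 1, 0.67 with no filter, 0.64 with the same sum and 0.97 with limma voom on recovered fragments, and 0.79 to 0.92 without single libraries. Members lower at 50 nM were 25 with no filter and 7 to 14 without single libraries. The median ratio change at 50 nM was 1.20, 0.58 and 1.17 with pseudocounts of 0.01 and 1 and with voom, 1.19 for members sharing no exon with another gene, and 0.96 to 1.13 without single libraries. Ratios lower at 50 nM were 6 with a pseudocount of 1, 7 with no filter, 4 with voom, 1 with members inside the host, 1 with no shared exon and 0 with opposite-strand partners, where 10 were higher, and 2 to 4 without single libraries.

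Between the doses the members' median was 0.28 with a pseudocount of 1 and 0.62 with voom, and members lower were 1 with voom. Members higher were 40 to 75 without single libraries. Ratios higher were 48 with a pseudocount of 1, 4 of the 18 pairs with opposite-strand partners, and 0 to 32 without single libraries. Ratios lower were 3 with a pseudocount of 1, 1 with no filter and 1 with voom, and 0 to 1 without single libraries. The median ratio change was 0.33 with a pseudocount of 1 and 0.67 with opposite-strand partners, and the summed FPKM ratio was 1.499 scaled to fragment totals. The settings with at least 10 fragments and with no shared exon were chosen after seeing the data, as was 1 member a host. The causes were not tested. With the replicate block, ratios higher between the doses were 15 and ratios lower at 25 nM 5, and no other count or median given for all members moved by over 1.5 times. Same-numbered libraries had correlated deviations of -0.05 to 0.08, so the shared numbers were not taken as pairs. Depth limits single members: 60 of the 229 tested had fewer than 10 fragments a library.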
